A study of Schmidtea mediterranea with 4 samples.

Results

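The genes described here are 332 of the 22192 genes counted in sexual *S. mediterranea*, and they were selected on their higher transcript levels in anterior tissue. Unique molecular identifiers (UMIs, which mark single captured transcripts) were summed over all cells of each library and scaled to CPM (the UMIs of a gene per 1000000 UMIs of the same cells). Of the 17231 genes with at least 100 UMIs over the 4 libraries, a gene became a member when the lower of its 2 anterior values was at least 2 times the higher of its 2 posterior values. The rule thus picked 1.93% of these genes, and with the regions exchanged it picked 136, or 0.789%. Because the members were chosen by the difference between regions, that difference is given below as a description and was not tested.

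The anterior end of a planarian holds the brain, whose cephalic ganglia lie beneath the eyes, and the ovaries sit just behind the brain. Testes, yolk-producing vitellaria and the copulatory organs lie largely behind this region. Neurons, muscle, gut, epidermis and stem cells occur along the whole body axis, and some planarian cell types are made in different numbers, or express different genes, at different positions along it.

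Single-cell RNA sequencing was performed on tissues enriched for reproductive organs of sexually mature, starved animals of the sexual strain, with no other treatment. Anterior and posterior tissue gave 2 libraries each, and every library came from a suspension of pooled tissue sections from which live single cells had been sorted, so that individual animals cannot be told apart. Nothing in the labels says whether the libraries of a region came from separate suspensions. Differences between them may therefore be technical. The anterior libraries held 6721 and 10389 cells with medians of 1208 and 1218 UMIs per cell, and the posterior libraries held 12026 and 19080 cells with medians of 3297.5 and 2394.5 UMIs. Pairs of libraries had between 16 and 53 cell barcodes in common, at most 0.521% of the smaller library. Cells were clustered without the members, which gave 54 clusters. Of the 4 genes that the study identifies by number, the somatic gonadal genes *nrps* and *LamA* (an extracellular matrix component) peaked in cluster 54 at 449 and 2984 CPM, and *klf4l*, a marker of germline stem cells and yolk cell progenitors, peaked in cluster 30 at 246 CPM. Transcripts of the reproductive organs were thus present. No gene names were paired with the other identifiers, so clusters are given by number and only the members with the largest ratio and with the most UMIs are given by identifier.

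Together the members were a small part of the RNA of either region. Their summed level was 6276 CPM in anterior library 1 and 4074 CPM in anterior library 2, compared with 1021 and 1373 CPM in the posterior. The median member had 7.56 and 5.41 CPM in the anterior and 1.29 and 1.85 CPM in the posterior, and was detected in 0.878% and 0.698% of anterior cells and in 0.391% and 0.495% of posterior cells. The ratio of the lower anterior to the higher posterior value had a median of 2.64 and reached 184. It was at least 3 for 115 members, at least 5 for 44 and at least 10 for 14. The 5 members nearest to the threshold had ratios of at most 2.012, and the 5 genes that just missed it had ratios of at least 1.988.

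The libraries of a region were not equal. Anterior library 1 exceeded anterior library 2 for 298 of the 332 members, compared with 9353 of the 17199 genes with UMIs in every library. Posterior library 2 exceeded posterior library 1 for 271 members, a count not made for all genes. The ratio of posterior library 1 to posterior library 2 had a median of 0.743 over the 331 members with UMIs in both. Over the 17199 genes its median was 0.929, so that these leaned the same way but less. The number of members accordingly rested on anterior library 2 and posterior library 2. Without anterior library 2 the rule picked 1082 genes, and without posterior library 2 it picked 1449 genes, all 332 members included by construction. The number also depended on cell depth, which differed between the regions. Among cells of 1000 to 3000 UMIs 113 genes passed, of which 92 were members, and after thinning each cell to 1000 UMIs 183 passed, of which 159 were members. With UMIs per cell in place of CPM, which lowers the median log2 ratio of all genes from 0.04 to -1.20, 55 of the members passed.

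**Figure D1:**
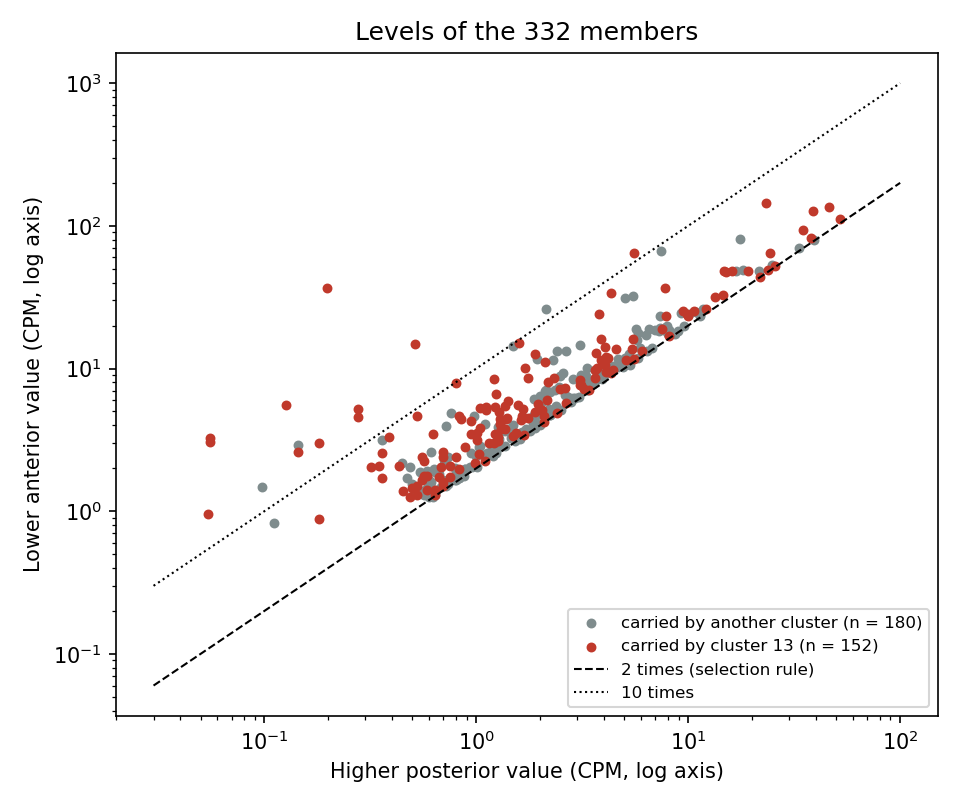
Each point is 1 of the 332 members, with the higher of its 2 posterior values on the horizontal axis and the lower of its 2 anterior values on the vertical axis (CPM, both axes logarithmic). All points lie on or above the dashed line of 2 times by selection, 14 lie above the dotted line of 10 times, and the 152 members carried by cluster 13 (red) make up 11 of these 14.

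The member with the largest ratio was SMESG000003469.1. Its level was 39.8 and 36.5 CPM in anterior tissue, compared with 0.198 and 0.111 CPM in posterior tissue. These values came from 458 and 701 anterior UMIs and from 11 and 8 posterior UMIs. Its anterior UMIs were concentrated in few cells. A single cell held 119 UMIs in anterior library 1 and 432 in anterior library 2, while 140 of its 162 and 81 of its 88 positive cells held 1 UMI each. In cluster 13 it was found in 14 and 7 anterior cells with 279 and 610 UMIs, or 461 CPM (exact Poisson 95% interval 408 to 518) and 1193 CPM (1100.4 to 1292). None of its UMIs fell in the 91 and 332 posterior cells of that cluster. Set against a limit of 3 UMIs over both posterior libraries, which is 2.99 CPM, the pooled anterior level of 796 CPM was at least 266-fold higher. The bound was 154-fold from anterior library 1 alone and 399-fold from anterior library 2 alone, and 68.2-fold against posterior library 1 alone and 198-fold against posterior library 2 alone. The bounds for single libraries were chosen after seeing the data. Each bound covers counting error only and rests on the few cells above. In the clusters that carried no member the gene was still seen in 2.69% and 0.857% of anterior cells, against 0.0985% and 0.0352% of posterior cells. The part of free RNA from lysed cells in these single UMIs was not tested.

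The member with the most UMIs was SMESG000017305.1, and it was spread over many cells. Its level was 197 and 112 CPM in anterior tissue, compared with 35.8 and 52.2 CPM in posterior tissue. It was detected in 1077 and 1231 anterior cells and in 954 and 1784 posterior cells. In cluster 13 it was present in most cells of all 4 libraries, in 76.5% and 72.4% of the anterior and in 93.4% and 79.2% of the posterior cells, which held more UMIs per cell. Its level within the cluster was 1769 and 1502 CPM in the anterior and 1478 and 1228 CPM in the posterior. Within this cluster the regions thus lay close together while the whole-library levels differed at least 2.14-fold. The other posterior cells had 29.1 and 39.9 CPM. In the posterior libraries, which took no part in the choice of the cluster, the gene was higher in cluster 13 than in the other cells by 5.30 on the log2 scale (standard error 0.21, adjusted *P* = 4.49e-130, quasi-likelihood test of edgeR, adjusted after Benjamini and Hochberg). This *P* draws on a spread pooled over genes and does not measure the spread between 2 libraries for this gene alone.

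The 12 members that followed SMESG000003469.1 in ratio, with ratios between 12.3 and 59.1, together with 1 further member at 11.7, differed in abundance and in how evenly their UMIs were spread. The members ranked next to SMESG000003469.1 had only 111 and 110 UMIs in all. The fourteenth had 3087 UMIs, with 112 and 64.5 CPM in the anterior and 2.81 and 5.52 CPM in the posterior, and 465 and 514 anterior cells were positive for it. Its 10 richest anterior cells held 11.8% of its anterior UMIs, compared with 75.8% for SMESG000003469.1. Of these 14 members, 11 were carried by cluster 13 and 1 each by clusters 18, 25 and 54.

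To find the cells behind the members, each member was assigned to a carrier cluster, the cluster with its highest CPM in the anterior libraries pooled. Clusters with at least 20 anterior cells were eligible. The members fell on 34 of the 54 clusters, and 18 clusters carried at least 5 members each and 306 in total. Cluster 13 alone carried 152, followed by cluster 25 with 22, cluster 2 with 14, cluster 24 with 12, cluster 54 with 11 and cluster 53 with 10. For 228 members the carrier also held more of the anterior UMIs than any other cluster. The median member had 46.5% of its anterior UMIs in its carrier and 19.5% of its posterior UMIs. The carrier was the same in both anterior libraries for 211 members, and the cluster with the highest posterior CPM was the same as the anterior carrier for 203. All 4 libraries gave the same carrier for 107 members. The assignment of rare members was thus uncertain, and 293 members had at least 10 anterior UMIs in their carrier.

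Cluster 13 stood out by the number of its members and by its share of cells. It comprised 498 and 431 anterior cells, or 7.41% and 4.15% of the anterior libraries, and 91 and 332 posterior cells, or 0.757% and 1.74%. It was the single cluster of 54 whose lower anterior share of cells was at least 2 times its higher posterior share. The order held at matched depth. Among cells of 500 to 1000 UMIs, cluster 13 took up 10.6% and 5.68% of the anterior and 0.929% and 2.39% of the posterior cells, and among cells of 2000 to 4000 UMIs 3.25% and 1.98% against 0.801% and 1.88%. In the deeper range the lower anterior and the higher posterior share were close. Members made up 52725 and 53530 CPM of the RNA of this cluster in the anterior and 33553 and 25462 CPM in the posterior. The 4 genes known by number had few UMIs in it, with 3 of *nrps*, 44 of *LamA*, 43 of *klf4l* and 19 of the gut paralog of *nrps*. Their levels were 1.42, 20.8, 20.3 and 8.96 CPM. That of *klf4l* was exceeded only in clusters 30, 22 and 3, at 246, 22.7 and 21.2 CPM. These 4 genes leave the cluster unnamed. In tissue samples, more cells of a type and more RNA of a gene per cell both raise a gene's summed level, so both are described below.

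The carriers after cluster 13 are described by their numbers of cells and by the level of the members they carry. Cluster 53 was small, with 13 and 21 anterior and 10 and 36 posterior cells. Its 10 members together made up 109048 and 81498 CPM in the anterior and 31651 and 25483 CPM in the posterior, against 16.2 and 18.9 CPM and 7.71 and 14.4 CPM in all other cells. The most abundant of them, with 3599 UMIs, reached 29359 and 21166 CPM in the anterior cells of the cluster and 6434 and 10416 CPM in the posterior cells. Its level thus separated the regions within the cluster although the shares of cells, 0.193% and 0.202% against 0.0832% and 0.189%, nearly met. This level rested on few cells. The 10 richest anterior cells held 92.8% of the anterior UMIs of this member, and 1 posterior cell held 54.2% of its posterior UMIs.

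Cluster 25 held 2.16% and 1.502% of anterior cells and 1.05% and 1.35% of posterior cells. Its 22 members summed to 4437 and 5844 CPM in the anterior and to 3887 and 2848 CPM in the posterior cells of the cluster. Cluster 2, the largest carrier, held 12.6% and 9.89% of anterior and 6.39% and 4.84% of posterior cells, and its 14 members summed to 2050 and 2218 CPM against 879 and 1255 CPM. In both clusters the anterior values exceeded the posterior values for cells and for level alike. The 5 members of cluster 18 stood at 1207 and 903 CPM in the anterior and at 96.3 and 67.7 CPM in the posterior, while its posterior share of cells in library 2, 2.81%, lay between the anterior shares of 3.42% and 2.48%. Cluster 54, where *nrps* and *LamA* had their highest CPM, comprised 11 and 15 anterior and 8 and 24 posterior cells. Its 11 members summed to 2814 and 3929 CPM in the anterior and to 2521 and 1474 CPM in the posterior, but many rested on few UMIs. Cluster 22, with 801 cells, held more UMIs of *nrps* and *LamA*, 99 and 514 against 36 and 239 in cluster 54.

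Over all 18 carriers of at least 5 members, the lower anterior share of cells exceeded the higher posterior share in 10, compared with 13 of all 54 clusters. The higher anterior level of the members was not limited to carriers. The members were chosen for that level, so the counts that follow are descriptions, without a matching count for other genes. The summed level of all 332 members was higher in both anterior than in both posterior libraries in 49 of the 54 clusters, including each of the 20 clusters that carried no member. In these 20 clusters together it was 1114 and 937 CPM in the anterior and 336 and 498 CPM in the posterior, well below the level of cluster 13. Whether these transcripts came from the cells themselves or from RNA of other cells in the droplets was not tested.

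**Figure D2:**
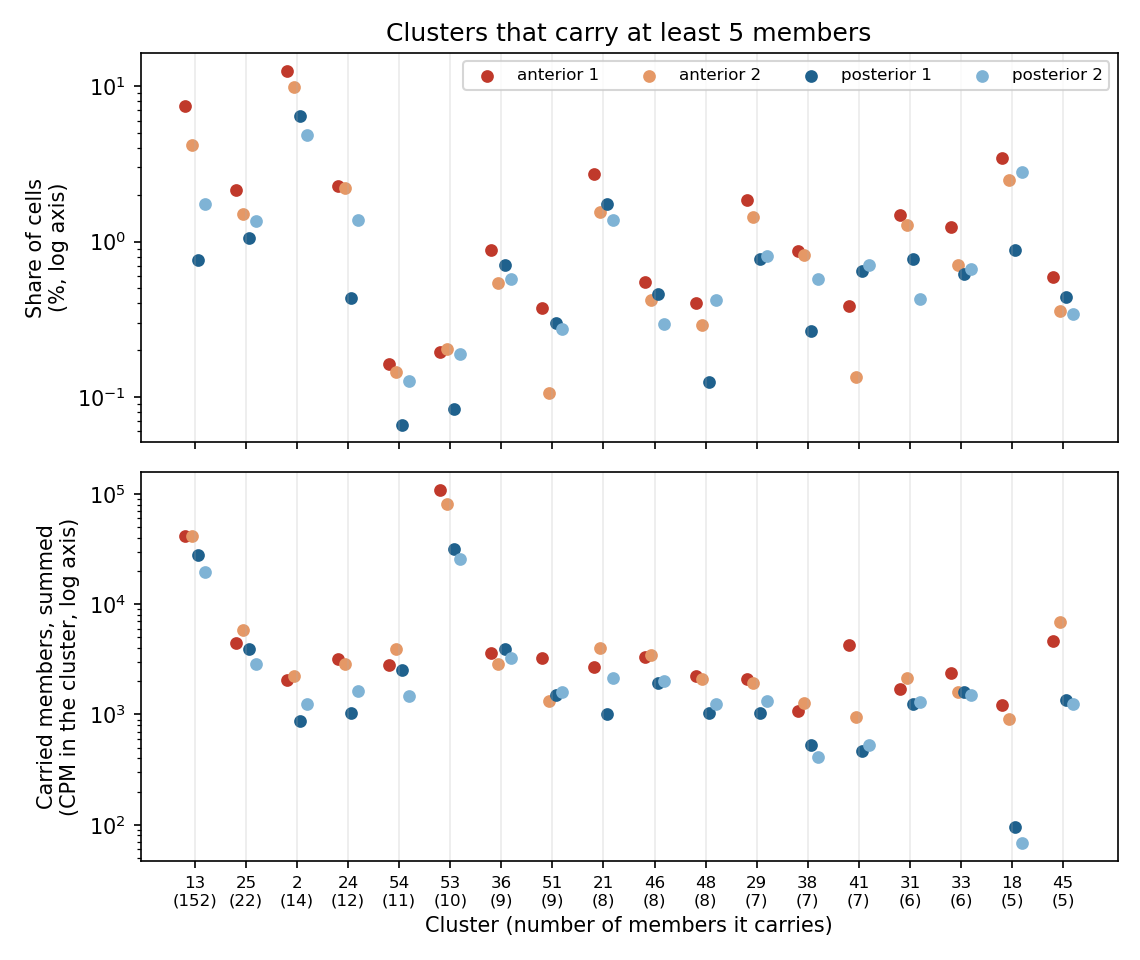
For the 18 clusters that carry at least 5 members, the upper panel shows their share of the cells of each library (percent) and the lower panel the summed level of the members they carry (CPM within the cluster), both on logarithmic axes, with 1 point per library. In cluster 13 the anterior shares of 7.41% and 4.15% lie above the posterior shares of 0.757% and 1.74%. In the lower panel both anterior values lie above both posterior values in every cluster shown except clusters 36 and 51. The members were chosen for higher anterior levels.

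The choice of carriers used the anterior libraries alone, so the posterior libraries could show whether the members also mark these cells there. For 273 of the 332 members the level in the carrier exceeded that in the other cells in both posterior libraries. No such share was computed for other genes. The difference was tested with UMI sums of the cluster and of the other cells of each posterior library for the 17 clusters with at least 5 members and at least 10 cells in each posterior library. Cluster 54 had too few. These 17 clusters carried 295 members, of which 280 passed the filter on low counts. At an adjusted *P* under 0.05, 249 of the 295 were higher in their carrier (quasi-likelihood test of edgeR, adjusted after Benjamini and Hochberg over all genes tested in a cluster). At an unadjusted *P* under 0.05, 254 were higher. Over all genes and the same 17 clusters, 9.97% of tests called a gene higher in the cluster, a background that includes the genes from which the clusters were built. This background is not matched, because it takes each gene in every cluster, while a member was tested only in its carrier. The share for other genes given a carrier in the same way was not computed. The same limit holds for the shares of all genes by cluster below.

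In cluster 13, 123 of 152 members were higher, against 15.4% of all genes. The 141 that passed the filter had a median difference of 4.85 on the log2 scale, where the median of all genes tested was -0.45. For 87 of the 152, cluster 13 was also the cluster with the highest posterior CPM. In cluster 25, 20 of 22 members were higher, against 15.6% of all genes, and in cluster 24 all 12 were, against 12.5%. All 10 members of cluster 53 were higher, against 1.83% of all genes, with a median difference of 11.42. All 14 members of cluster 2 were higher, against 22.8%. Cluster 36 had 9 of 9 members called, against 7.28% of all genes, and cluster 51 had 8 of 9, against 4.04%. In cluster 21 all 8 were called, against 12.6%, and in clusters 46 and 48 6 of 8 each, against 9.68% and 3.25%. All members were called in cluster 29 (7 of 7, against 13.1% of all genes), cluster 31 (6 of 6, against 4.67%) and cluster 33 (6 of 6, against 10.3%). In cluster 38, 6 of 7 were called, against 8.16%, and in cluster 41, 4 of 7, against 6.97%. Clusters 18 and 45 had 2 of 5 members called each, against 12.9% and 7.83% of all genes, with a median difference of 1.43 in cluster 18.

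The number of members per cell was then compared at equal depth, with each cell thinned to 1000 UMIs. Thinning left out 2577 and 4088 anterior and 1614 and 4147 posterior cells. A mean of 3.78 and 2.88 members was detected per anterior cell and of 1.15 and 1.48 per posterior cell. At least 10 members were found in 11.8% (exact binomial 95% interval 10.8 to 12.8) and 8.01% (7.36 to 8.71) of anterior cells and in 2.28% (1.998 to 2.58) and 3.36% (3.08 to 3.66) of posterior cells. At least 20 members were found in 4.61% (3.99 to 5.29) and 2.75% (2.36 to 3.18) of anterior and in 0.259% (0.171 to 0.377) and 0.335% (0.249 to 0.441) of posterior cells. The intervals cover counting error of cells only, and the values of the 2 regions did not overlap. As the members were chosen for higher anterior levels, more of them per anterior cell follows in part from the rule. These shares, and the members per cell of single clusters below, are descriptions. Other genes were not counted in this way. Of the 441 cells with at least 20 members, 352 belonged to cluster 13. At least 30 members were seen in 140 cells, all of them anterior and 137 of them in cluster 13.

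The cells of cluster 13 themselves held more of the members in the anterior. Of the 152 members it carried, its thinned cells showed a median of 17 and 18 in the anterior (225 and 199 cells) and of 10 and 10 in the posterior (76 and 233 cells). The quartiles were 12 to 22 and 14 to 22 in the anterior and 7 to 14 and 7 to 13 in the posterior, so that single cells of both regions overlapped. Cells outside the cluster held a mean of 1.22 and 0.954 of these members in the anterior and of 0.478 and 0.605 in the posterior. In cluster 53 the cells showed a median of 5 and 4 of its 10 members in the anterior and of 6 and 2.5 in the posterior. There the regions did not separate by members detected, although the UMIs of these members per cell did, with means of 137 and 68.7 in the anterior and 42.6 and 25.1 in the posterior.

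**Figure D3:**
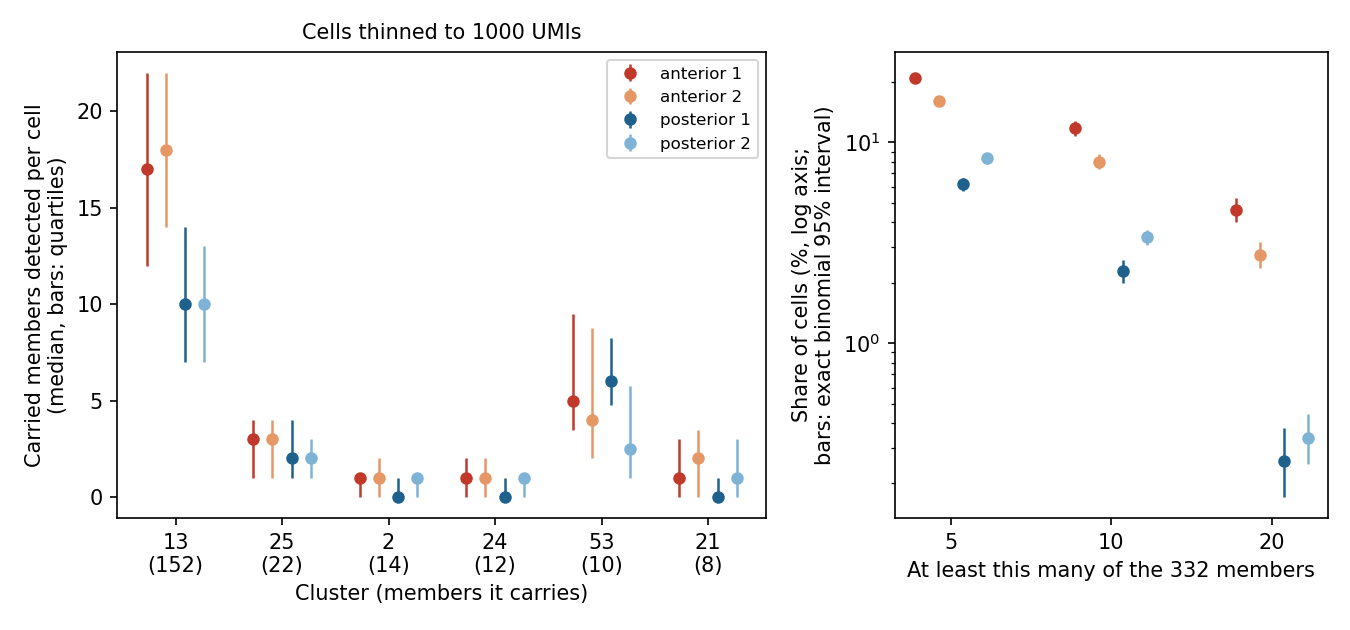
Cells were thinned to 1000 UMIs. On the left, the median number of carried members detected per cell is shown for 6 carrier clusters and each library, with bars from the lower to the upper quartile. Cluster 13 has medians of 17 and 18 in the anterior and 10 and 10 in the posterior. On the right, the share of cells with at least 5, 10 or 20 of the 332 members is shown on a logarithmic axis with exact binomial 95% intervals, and anterior lies above posterior at each number.

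The anterior excess of each member was divided into a part from cluster shares and a part from the level within clusters. The cluster share is the share of all UMIs that a cluster takes, so it depends on numbers of cells and on UMIs per cell. Cluster shares accounted for a median of 49.8% of the excess. The quartiles over members were 39.4% and 58.8%, and 292 members between 25% and 75%. The median over members was 50.3% for those carried by cluster 13 and 15.6% for the 5 of cluster 18. For 5 members the part was below 0. The part from cluster shares was 69.4% for SMESG000017305.1 and 29.8% for SMESG000003469.1. The median over all members depended on how cells were weighted and on their depth. It was 38.2% with shares of cells in place of shares of UMIs and 22.4% among cells of 1000 to 3000 UMIs.

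By location, a median of 28.3% of the excess came from the UMI share of the carrier, 19.0% from the level within the carrier and 45.4% from all other clusters. For the members of cluster 13 these medians were 38.0%, 23.99% and 35.1%. The level within the carrier was higher in the anterior libraries pooled for 305 of the 332 members, at least 2-fold for 197, and both anterior libraries exceeded both posterior libraries for 230. In cluster 13 the pooled level was higher for 143 of 152 and at least 2-fold for 102, and the libraries did not overlap for 122. These counts come from the contrast that chose the members and are descriptions. Over whole libraries 1.93% of the 17231 genes passed the rule, which is another measure. The share of all genes with such differences within clusters was not computed.

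Members of cluster 13 differed in how far their level within the cluster separated the regions. The 11 members with a ratio of at least 10 summed to 3238 and 3887 CPM in its anterior cells and to 38.9 and 75.1 CPM in its posterior cells, and 7 of the 11 had no posterior UMI in the cluster. The other 141 members summed to 37843 and 37723 CPM in the anterior and to 27695 and 19529 CPM in the posterior. The classes were set by the same ratio that chose the members, so that these values are a description. Among the abundant members, the member ranked 2 by UMIs had 2867 and 2944 CPM in the anterior and 1642 and 1641 CPM in the posterior cells of the cluster. The member ranked 4 by UMIs had 2898 and 3299.9 CPM in the anterior and only 265 and 219 CPM in the posterior. The member ranked 3 ran the other way in 1 library, with 1468 and 2451 CPM in the anterior and 5423 and 769 CPM in the posterior. A single posterior cell held 28.9% of the posterior UMIs of that member, and posterior library 1 had only 91 cells in the cluster.

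Counting positive cells gave a second view of number and level, without clusters. After thinning to 1000 UMIs, 316 members had at least 10 positive cells in each region. For these the share of positive cells was a median of 2.31 times as high in the anterior as in the posterior, and it was higher for 315 and at least 2-fold for 229. The number of UMIs per positive cell was a median of 1.06 times as high, higher for 234 and at least 2-fold for 19. Higher anterior levels in the same libraries chose the members, so these counts are descriptions. They were not made for other genes. Most members thus differed in how many cells showed them and little in UMIs per positive cell. At this depth the median member had 1.22 UMIs per positive anterior cell and 1.13 per positive posterior cell, close to the floor of 1, so that differences in level of rare members appear as differences in the share of positive cells.

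**Figure D4:**
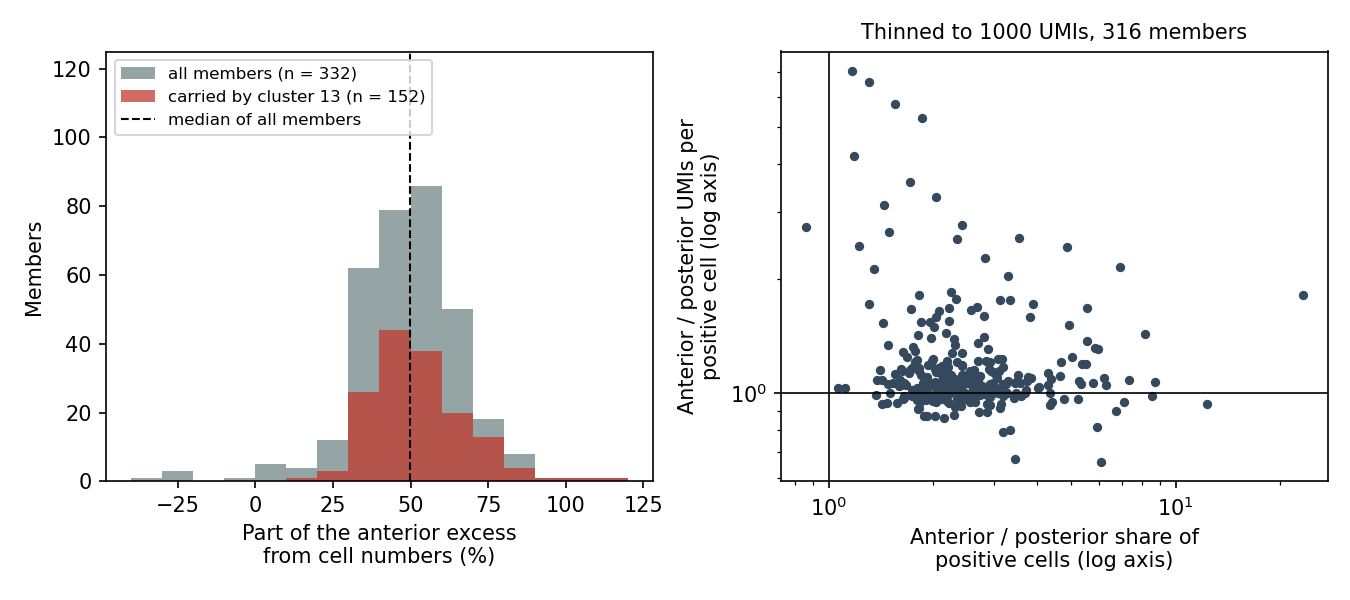
The left panel shows how many members have a given part of their anterior excess from cluster shares of UMIs (percent, in steps of 10, labeled as cell numbers). All 332 members are in grey and the 152 carried by cluster 13 in red, with the median of 49.8% as a dashed line. In the right panel each of 316 members is placed by the anterior to posterior ratio of its share of positive cells and of its UMIs per positive cell after thinning to 1000 UMIs (logarithmic axes), and most lie to the right of 1 and close to 1 in height.

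Taken over all carriers together, members of 1 carrier were found in the same cells more often than their detection rates and the cells' depth gave. Cluster 13 carried 152 of the 332 members and so supplied most of the possible pairs with the same carrier. The values were not split by carrier, so those of the smaller carriers alone are not known. For each pair, the cells with both members were divided by the number expected within 10 strata of UMIs per cell of the library, for pairs with an expected number of at least 1. Pairs of members with the same carrier had a median of 4.24 and 4.66 times the expected number in the anterior and of 3.77 and 3.35 times in the posterior. Pairs with different carriers had 2.16 and 2.11 times in the anterior and 2.10 and 1.82 times in the posterior. The ratio was above 1 for 91.9% to 96.9% of the pairs with the same carrier and for 67.9% to 72.5% of the others. Members with the same carrier peak in the same cluster of the anterior cells. Their higher ratio thus follows in part from the grouping. Pairs share members and cells, so these values are given without a test, and pairs of other genes were not computed.

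Within cluster 13, members were found together about as often as their detection rates gave. Pairs of its members had 1.09 and 1.06 times the expected number in the anterior and 1.06 and 1.05 times in the posterior, when the expected number was taken from the cells of the cluster alone in 3 strata of depth. Pairs among the 11 members with a ratio of at least 10 stood somewhat higher, at 1.45 and 1.27 times in the anterior, from 24 and 26 pairs. In the posterior libraries 0 such pairs had an expected number of at least 1.

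**Figure D5:**
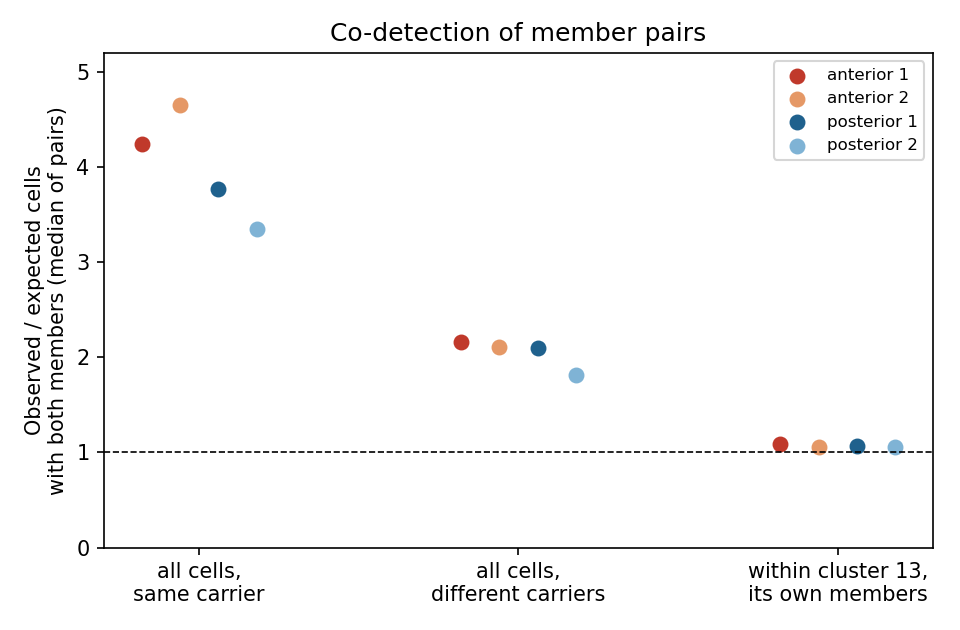
Points show, for each library, the median over member pairs of the observed divided by the expected number of cells with both members, for pairs with the same carrier and with different carriers over all cells and for the members of cluster 13 within that cluster. The dashed line marks 1. In all 4 libraries pairs of the same carrier (3.35 to 4.66) lie above pairs of different carriers (1.82 to 2.16). Pairs within cluster 13 lie between 1.05 and 1.09. Pairs of the same carrier are pooled over carriers, and most of the possible pairs are of cluster 13.

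Members also differed in how many cells stood behind their level. The 10 richest anterior cells held a median of 19.2% of a member's anterior UMIs, less than 10% for 78 members and at least 50% for 45. For 16 members a single cell held at least 25%. When the richest cell of each gene in each library was left out, an alternative chosen after seeing the data, 310 of the 332 members still passed the fold. Member RNA also fell with cell depth in every library, from 12031 and 8540 CPM in anterior cells of 500 to 1000 UMIs to 1522 and 995 CPM in those of at least 4000 UMIs, and from 3167 and 3301 CPM to 554 and 702 CPM in the posterior. The regions were apart in each range, and the larger share of shallow cells in the anterior libraries moved with the same difference. Its part was not tested beyond the thinned values above.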

How the data were processed

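The authors made the deposited UMI counts per gene and cell with Cell Ranger 5.0.0 (file headers), aligning 4 single-cell libraries to the sexual *S. mediterranea* genome and keeping the barcodes called as cells. These counts are whole numbers and were not normalized. The authors' later aggregation to a common depth is not in them. Libraries held between 11513838 and 72094246 UMIs. Libraries were grouped by region from the sample labels.

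Cells were clustered with leidenalg 0.10.2 (resolution 1, 20 neighbors, 50 principal components, 3000 variable genes) without the members and the 4 genes numbered in the paper. No doublets were removed, and the 5% of cells with the most UMIs were left out as an alternative. The tests of clusters used edgeR 4.0.16 under R 4.3.3 (TMM, filterByExpr, library as a block, Benjamini-Hochberg at 0.05), with DESeq2 1.42.0 as an alternative. Standard errors are the log2 difference divided by the square root of F. Scripts were tested on simulated data. Members, lists and tests were chosen with earlier results of these data known. As no table paired identifiers with names, 2 identifiers are printed by rule: the member with the largest ratio and the one with the most UMIs. Alternatives covered fold, minimum UMIs, scaling, depth, clustering, weights, filter, block and each library left out.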

Additional observations from a re-analysis of the deposited data

Results flagged for a closer look

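For 15 members the level in the carrier cluster lay above that of the other cells in both anterior libraries and below it in both posterior libraries. This opposite direction in the 2 regions was not tested as a difference. For 12 of the 15 no posterior UMI fell in the carrier, and the others had at most 18 posterior UMIs there, so that a lower posterior level was not detectable at this depth for most of them. SMESG000003469.1 is among the 12.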

How the results depend on the processing

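No paired analysis was possible because the comparison of regions, which chose the members, comes from no test. The tests of clusters paired each cluster with the other cells of its library, and 251 members were called without this block. The number of members, 332, was 861 at a fold of 1.5, 115 at a fold of 3, 523 without a minimum of UMIs, 55 with UMIs per cell, 113 among cells of 1000 to 3000 UMIs and 183 after thinning, and ranged from 363 to 1449 with 1 library left out. It stayed within 1.5 times under the other 7 alternatives. The median part of the excess from cluster shares of UMIs, 49.8%, was 40.6% at resolution 0.5, 38.2% with shares of cells and 22.4% among cells of 1000 to 3000 UMIs. It ranged from 40.4% to 54.7% with 1 library left out, the lowest without anterior library 1. The number of members called in their carrier, 249, ranged from 225 to 284 over all 13 alternatives, and leaving out 1 of only 2 posterior libraries allowed no test. Median co-detection, 4.00 for the same carrier and 2.10 for different carriers, was 6.08 and 3.24 after thinning without strata, and at resolution 0.5 pairs of different carriers had 2.37. With 1 library left out these medians ranged from 3.77 to 4.24 and from 2.10 to 2.11. The causes of these shifts were not tested. Depth limits the rare members: 100 UMIs over 4 libraries are the fewest a member had.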
